A study of Mus musculus with 13 samples.

Results

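Of 9 melanoma cell lines with a list of H3K27ac peaks, 3 lines (Ma_1007, Ma_1062 and Ma_1069) had no peak over the gene bodies of Cdkn2a and Cdkn2b, and 6 lines (Ma_1014, Ma_1039, Ma_1057, Ma_1064, Ma_1181 and Ma_1456) had peaks over both. The lines were chosen by these peak calls, so the absence itself is a description and carries no test. The first 3 are called the unmarked lines here and the other 6 the marked lines. H3K27ac, the acetylation of lysine 27 of histone H3, marks promoters and enhancers in use. In ChIP-seq, chromatin is precipitated with an antibody against the mark and its DNA is sequenced.

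The lines came from melanomas of mice on a C57BL/6J background that carried the Tyr::NRAS transgene, which drives the oncogenic Q61K form of NRAS from the tyrosinase promoter in melanocytes, and that were heterozygous for Cdkn2a (Cdkn2a+/-). All 9 lines share these alleles and a floxed E-cadherin gene (Cdh1 F/F). In the ΔEcad lines Cdh1 was deleted by the Cre of Tyr::CreA, which is active in the melanocyte lineage, and in the Ecad lines it was kept. The unmarked lines were male Ecad (Ma_1007), male ΔEcad (Ma_1062) and female ΔEcad (Ma_1069). The marked lines were male Ecad (Ma_1181), female Ecad (Ma_1014 and Ma_1039), male ΔEcad (Ma_1456) and female ΔEcad (Ma_1057 and Ma_1064). No female Ecad line was unmarked. Cells were grown in F12 medium with serum and untreated. Each line is 1 culture with 1 list, lines are the replicates, and the depth of the libraries is unknown. Where a list has no peak, no signal passed the threshold of the caller, which does not show that the mark was lacking.

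Cdkn2a is a gene with 2 products. Its transcript from the proximal promoter encodes p16INK4a, which inhibits the cyclin D kinases CDK4 and CDK6 and so keeps RB active, and its transcript from the distal promoter encodes p19ARF, which binds MDM2 and so stabilises p53. Cdkn2b, its neighbour, encodes p15INK4b, another inhibitor of CDK4 and CDK6. The locus is a well-known tumour suppressor in melanoma, is switched on in senescence and after oncogene activation, and is held silent by Polycomb proteins in young cells.

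In mm10 (GRCm38) coordinates and the GENCODE M21 annotation, both genes lie on the minus strand, Cdkn2a at chr4:89274471-89294653 and Cdkn2b at chr4:89306299-89311039. The 250 bases before the RefSeq starts of the 3 transcripts (build GRCm38.p6) are shown. Peaks lay over these promoters in the marked lines, except at p16Ink4a in Ma_1014, and no peak did so in the unmarked lines. The last sequence is the 300 bases around the median summit of a region past Cdkn2b that was called in all 6 marked lists and in no unmarked list. Capitals mark any match, on either strand, of the letters TGACTCA or TGAGTCA (AP-1), GGAATG (TEAD), CACGTG (E-box), TCACGTGA or TCATGTGA (MITF), TTTCCCGC or TTTGGCGC (E2F), ACAATG (SOX) and GGGCGG (GC box). The MITF letters TCACGTGA contain the E-box.
p19Arf, chr4:89294620-89294869, minus strand: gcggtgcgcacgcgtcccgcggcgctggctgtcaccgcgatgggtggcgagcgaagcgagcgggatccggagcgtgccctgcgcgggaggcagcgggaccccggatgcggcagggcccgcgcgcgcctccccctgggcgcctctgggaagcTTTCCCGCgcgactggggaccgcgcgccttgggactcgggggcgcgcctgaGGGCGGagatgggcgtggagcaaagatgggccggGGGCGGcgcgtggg
p16Ink4a, chr4:89282193-89282442, minus strand: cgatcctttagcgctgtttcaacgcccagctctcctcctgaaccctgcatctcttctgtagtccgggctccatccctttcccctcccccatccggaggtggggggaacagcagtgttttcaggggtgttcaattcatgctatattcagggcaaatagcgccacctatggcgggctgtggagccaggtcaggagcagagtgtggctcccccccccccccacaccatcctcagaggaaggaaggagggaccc
Cdkn2b, chr4:89311033-89311282, minus strand: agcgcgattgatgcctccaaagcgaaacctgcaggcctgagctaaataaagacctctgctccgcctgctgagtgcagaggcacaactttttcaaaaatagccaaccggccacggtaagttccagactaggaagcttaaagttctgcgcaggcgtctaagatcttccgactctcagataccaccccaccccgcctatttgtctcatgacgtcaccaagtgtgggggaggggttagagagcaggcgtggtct
region past Cdkn2b, chr4:89351288-89351587, plus strand: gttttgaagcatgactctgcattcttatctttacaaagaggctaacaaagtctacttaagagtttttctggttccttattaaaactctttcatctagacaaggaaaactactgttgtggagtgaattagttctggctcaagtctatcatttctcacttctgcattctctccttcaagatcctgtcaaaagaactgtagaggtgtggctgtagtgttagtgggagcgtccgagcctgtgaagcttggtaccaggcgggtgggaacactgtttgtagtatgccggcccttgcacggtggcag

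The p19Arf window had a GC content of 78.4% and 40 CpG dinucleotides. It held 1 match of the E2F letters, which 1.29% of the 31396 autosomal RefSeq promoter windows of this length hold, and 2 GC boxes, which 33% hold. The p16Ink4a window had a GC content of 60% with 7 CpG dinucleotides, and the Cdkn2b window 53.6% with 12. Neither held any of the searched letters, nor did the region past Cdkn2b, whose 300 bases had a GC content of 44.3%. The AP-1 letters are in 4.5% of all windows, TEAD in 12.5%, the E-box in 6.02%, MITF in 1.61% and SOX in 10.3%. A match or its lack describes these letters in these windows alone.

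The p19Arf promoter ranked in the upper part of the peak list of each marked line. Here a promoter is 1 kb on either side of a start. The deposited −log10 q of a peak is given with the percentile of that value within its own list, since lists differ in length and their depth is unknown. At p19Arf the strongest peak had a −log10 q of 144 in Ma_1014, 67 in Ma_1039, 39.8 in Ma_1057, 123 in Ma_1064, 87.2 in Ma_1181 and 91.6 in Ma_1456. The percentiles were 84.8, 72.7, 69.7, 94.1, 68 and 86 in the same order. Its fold enrichment ran from 11.8 in Ma_1039 to 28.6 in Ma_1064.

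The p16Ink4a promoter separated the marked lines among themselves. Ma_1014 had no peak there, although its p19Arf peak had the highest −log10 q of the 6. The −log10 q was 65 in Ma_1039, 26.5 in Ma_1057, 120 in Ma_1064, 85.9 in Ma_1181 and 144 in Ma_1456. The percentiles were 71.8, 56.9, 93.8, 67.7 and 94. The peaks of Ma_1064 and Ma_1456 were part of a domain at chr4:89276755-89288053, of which peaks covered 10757 and 9845 bases, whereas they covered 8020 bases in Ma_1039, 5252 in Ma_1057 and 3045 in Ma_1181.

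At the Cdkn2b promoter the −log10 q was 31.9 in Ma_1014, 69.8 in Ma_1039, 46.2 in Ma_1057, 97.2 in Ma_1064, 37.4 in Ma_1181 and 74.9 in Ma_1456. The percentiles were 46.6, 73.7, 74, 90.6, 46.7 and 81.4, so Ma_1014 and Ma_1181 stood below the other 4 marked lines here. The same pair had the shortest marks over the gene bodies. Peaks covered 1.28 kb of Cdkn2a in Ma_1014 and 3.51 kb in Ma_1181, against 9.21 kb in Ma_1057, 10.8 kb in Ma_1456, 11.1 kb in Ma_1039 and 12.4 kb in Ma_1064. Over Cdkn2b the covered length was 0.734 kb in Ma_1181 and 1.06 kb in Ma_1014, and between 3.28 and 3.93 kb in the other 4. Ma_1181 and Ma_1014 thus had the least covered length among the marked lines, although their strongest Cdkn2a peaks had a −log10 q of 87.2 and 144. By the rule, the unmarked lines had 0 kb over both genes.

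The exons that p16INK4a and p19ARF share were seldom under a peak. The mice carried a mutant copy of Cdkn2a (Cdkn2a+/-), which the authors name the tm1Rdp allele. Which copies of these exons each line holds was not tested here, so the lack of a peak over them is no measure of acetylation. Exon 2 (chr4:89276645-89276985) was touched by a peak in Ma_1039 alone, which covered 67.7% of it. Exon 3 (chr4:89274471-89274774) lay wholly under a peak in Ma_1014 and Ma_1039, with a −log10 q of 40.7 and 103, and under none in the other lines. In Ma_1064 and Ma_1456, peaks ended at bases 89274440 and 89274460 and began again at 89276994 and 89276991, just outside these exons. Next to exon 3, the start of the lincRNA gene Gm12606, which runs away from it on the same strand, was called in 5 marked lines, with Ma_1181 as the exception, and in no unmarked line. The distal exon of Cdkn2b (chr4:89306299-89307314) was touched in Ma_1057 alone.

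A further region that separated the lines lay 39.6 kb past Cdkn2b, at chr4:89350609-89352315, between protein-coding genes and before the non-coding gene Gm12610. Its −log10 q was 34.2 in Ma_1014, 71.8 in Ma_1039, 24.3 in Ma_1057, 56 in Ma_1064, 28.2 in Ma_1181 and 72.2 in Ma_1456. The 6 summits lay between 81 bp before and 63 bp after their median, so the lists placed it at nearly the same base. Its percentiles ran from 39.1 in Ma_1181 to 80.5 in Ma_1456, with Ma_1181 and Ma_1014 again the lowest.

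**Figure D1:**
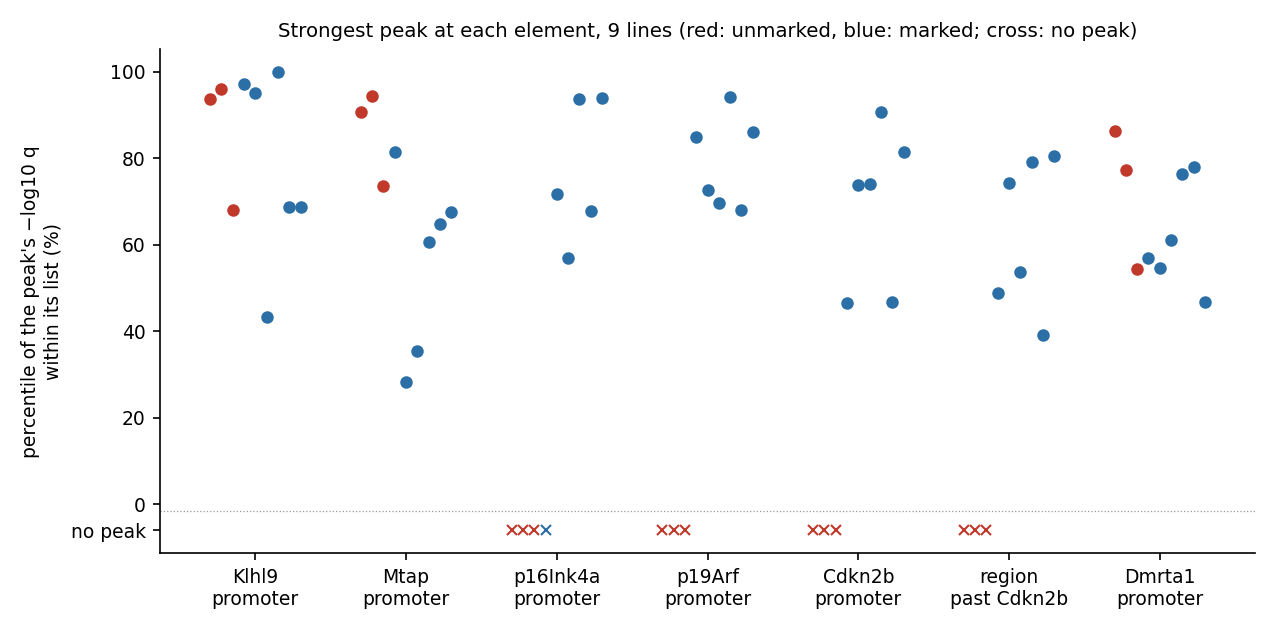
Percentile within its list (vertical axis, %) of the strongest peak at 7 elements of the locus (horizontal axis), 1 point per line, with unmarked lines in red, marked lines in blue and a cross where there is no peak. The 3 unmarked lines lack peaks at the p16Ink4a, p19Arf and Cdkn2b promoters and the region past Cdkn2b, Ma_1014 lacks p16Ink4a, and all 9 lines have peaks at Klhl9, Mtap and Dmrta1.

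The stretch without peaks reached far past the genes in each unmarked line. In Ma_1007 it was 268 kb long, from a weak peak 38 kb below the locus (−log10 q of 7.14) to a strong one 193 kb above it (88.7). In Ma_1062 it was 275 kb long and began at the end of a peak over Mtap. In Ma_1069 it was 322 kb long and also began in Mtap. The mean was 288 ± 29.7 kb (SD, n = 3), and the 3 stretches shared chr4:89236441-89427613, which is 191 kb. In that shared stretch the marked lists held 4 peaks (Ma_1014), 8 (Ma_1039), 18 (Ma_1057), 9 (Ma_1064), 5 (Ma_1181) and 14 (Ma_1456), which covered between 6.29 kb in Ma_1014 and 27.7 kb in Ma_1456. Ma_1014 and Ma_1181 had the fewest and shortest marks there as well. Below the genes, the nearest peak clear of them lay 109 kb away in Ma_1014, 128 kb in Ma_1039 and 131 kb in Ma_1181. It lay at most 0.116 kb away in the other marked lines, and 38, 121 and 128 kb away in Ma_1007, Ma_1062 and Ma_1069. Some marked lines were thus as bare below the genes as the unmarked lines. Whether the length of the stretch is particular to the unmarked lines was not tested. A peak list holds no copy number, and whether the DNA of the stretch is present in these lines was not tested here. The authors sequenced exomes of their mouse melanoma lines, and neither those data nor the input libraries were used here.

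The upper end of the stretch differed between the unmarked lines. Ma_1007 had no peak at 3 regions that all 8 other lists called, at chr4:89468222-89473110, chr4:89474737-89482866 and chr4:89483408-89488798. The first of them had a −log10 q of 209 in Ma_1062, 41.4 in Ma_1069 and between 97.6 and 177 in the marked lines. Another region, chr4:89460304-89465221, which reaches into Gm12610, was called in Ma_1062 (−log10 q of 101) and in all marked lines (14.6 to 99.8), and neither in Ma_1007 nor in Ma_1069. The ends of the 3 stretches therefore fell at different regions, with Ma_1062 marked closest to Cdkn2b on this side.

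**Figure D2:**
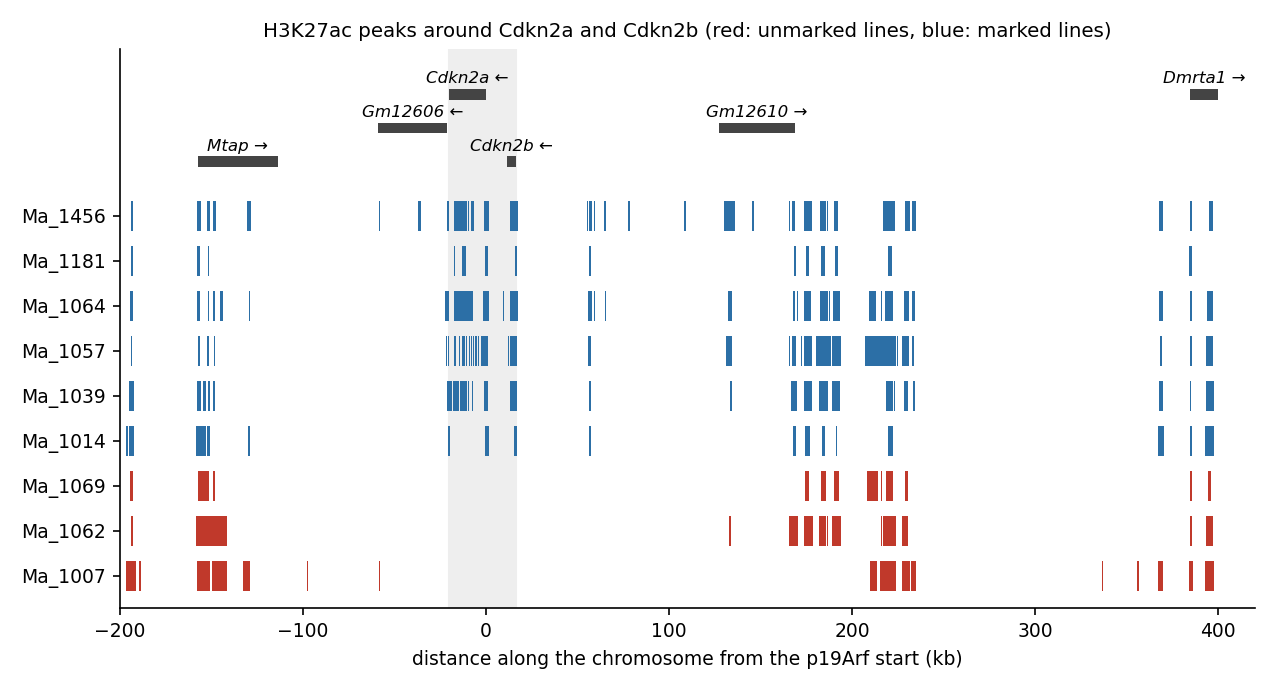
Peaks of the 9 lists (rows) along chromosome 4, as the distance in kb from the p19Arf start (horizontal axis), with the annotated genes as grey bars on top, arrows for their strand and the span of Cdkn2a and Cdkn2b shaded. The unmarked lines (red) have no peak over the shaded span or in the 191 kb that hold it, whereas the 6 marked lines (blue) do, and peaks of all lines return on both sides.

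Both flanks of the locus were marked in every line. Mtap, the gene next to Cdkn2a, encodes methylthioadenosine phosphorylase, a salvage enzyme of the methionine pathway. At its promoter the −log10 q was 280 in Ma_1007, 172 in Ma_1062 and 40.1 in Ma_1069, and 123 in Ma_1014, 16.2 in Ma_1039, 15.1 in Ma_1057, 30.5 in Ma_1064, 75.7 in Ma_1181 and 45.7 in Ma_1456. Its percentile was 90.7, 94.5 and 73.6 in the unmarked lines and ran from 28.3 to 81.4 in the marked lines, so the sides overlapped through Ma_1069 and Ma_1014. The covered length of the region that holds the promoter, chr4:89136298-89153220, did not overlap. Peaks covered 15.5 kb of it in Ma_1007, 16.6 kb in Ma_1062 and 6.75 kb in Ma_1069, and 6.57 kb in Ma_1014, 5.36 kb in Ma_1039, 2.17 kb in Ma_1057, 4.83 kb in Ma_1064, 2.15 kb in Ma_1181 and 5.25 kb in Ma_1456. This region was singled out after its values were seen, and the lowest unmarked value (Ma_1069) lay close to the highest marked one (Ma_1014). Of the 8061 regions called in all 9 lists, 61 (0.757%) were covered over more bases in every unmarked than in every marked list and 37 (0.459%) over fewer. Of the 12 such regions within 1 Mb of the locus, Mtap was 1 and the other 11 overlapped.

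Dmrta1, a gene of the doublesex-related family, is the next protein-coding gene above the locus, 368 kb from it. The −log10 q at its promoter was 208, 65.7 and 22.8 in the unmarked lines Ma_1007, Ma_1062 and Ma_1069 and between 24.8 and 143 in the marked lines. Klhl9, an adaptor of a cullin ubiquitin ligase, had 362, 202 and 32.9 in the same unmarked lines and between 18.6 and 423 in the marked lines. The sides overlapped at both genes, and within the unmarked lines the order Ma_1007, Ma_1062, Ma_1069 was that of the lengths of their lists.

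Within 1 Mb of the 2 genes 85 regions were called in at least 1 list, 12 of them in all 9, against 8061 of the 58221 regions over all autosomes. Ma_1007 called 52 of the 85, Ma_1062 33 and Ma_1069 28. The marked lines called 29 (Ma_1181), 38 (Ma_1057), 40 (Ma_1014), 42 (Ma_1039), 46 (Ma_1064) and 56 (Ma_1456). Ma_1007, which had the longest list (40824 peaks), thus held more of these regions than every marked line but Ma_1456. It held 0 of the 8 that touch the span of the 2 genes, which the rule fixed for regions over the gene bodies. Of the 11295 autosomal protein-coding promoters called in any list, 4553 (40.3%) were called in all 9. Of the 34 genes in this window with a called promoter in any list, coding or not, 20 were protein-coding and 11 were called in all 9 lists. Among the 11 were Mtap, Klhl9, Dmrta1 and predicted genes of the interferon zeta cluster. The genes of that cluster are close copies of each other, so the assignment of reads among them is uncertain. Cdkn2a and Cdkn2b, whose peaks chose the lines, were the 2 called in all marked and no unmarked lists. The interferon zeta gene itself (Ifnz) was called in 3 of 3 unmarked and 5 of 6 marked lists, with Ma_1057 as the exception, and Focad in 3 and 5, with Ma_1014 as the exception. The promoter of Gm12606 was 1 of 3 called in marked lines alone. The 4 called in unmarked lines alone (4930553M12Rik, Gm12607, Wincr1 and AL805899.1, none protein-coding) were called in Ma_1007 only.

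Away from the locus, the 2 sets of lines did not stand apart more than other choices of 3 lists did. Joining overlapping or touching peaks gave 58221 autosomal regions. Of these, 29 (0.0498%) were called in all 3 unmarked and no marked list and 19 (0.0326%) in all 6 marked and no unmarked list. None of the 29 and 3 of the 19 lay within 1 Mb of the genes, namely the p19Arf promoter, the Cdkn2b promoter and the region past Cdkn2b described above. The remaining 29 and 16 were set against all 84 choices of 3 of the 9 lists, of which the real choice is 1. As many or more regions were found by 38 of the 84 choices in the first direction (exact permutation test, one-sided p = 0.452) and by 38 in the second (exact p = 0.452). The median over the choices was 23.5 regions (1 to 479) and 11 regions (0 to 762). With 1 list left out, each unmarked line and the marked lines Ma_1039, Ma_1057 and Ma_1181 moved a count by over 1.5 times, up to 353 regions of the unmarked lines without Ma_1069 and 196 of the marked lines without Ma_1007. The lowest exact p over those settings was 0.179.

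Of 20807 autosomal protein-coding genes, 11295 had a called promoter in at least 1 list. None (0%) was called in all unmarked and no marked list, and 4 (0.0354%) were called in all marked and no unmarked list, which were Cdkn2a, Cdkn2b, Nes and Rnf135. Cdkn2a and Cdkn2b are among them by the choice of the lines. A count of 0 leaves nothing to test. For the 2 genes away from the locus, 41 of 84 choices gave as many (exact permutation test, one-sided p = 0.488), with a median of 1 and a maximum of 499. The choice of Ma_1069, Ma_1057 and Ma_1064, the 3 female ΔEcad lines, gave that maximum. With 1 list left out, each unmarked line and Ma_1057, Ma_1181 and Ma_1456 moved a promoter count by over 1.5 times, up to 33 promoters of the unmarked lines without Ma_1069 and 37 of the marked lines without Ma_1007. The lowest exact p over those settings was 0.143.

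**Figure D3:**
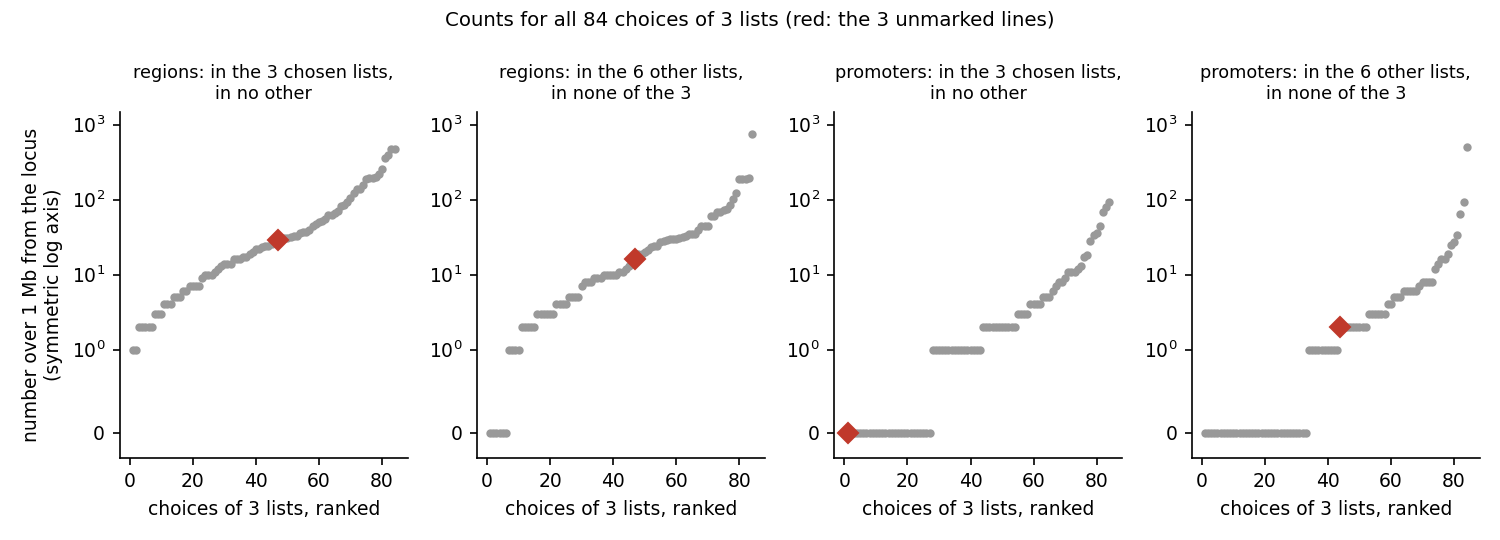
Number of regions (2 panels on the left) and protein-coding promoters (2 panels on the right) over 1 Mb from the locus that separate 3 lists from the other 6, for all 84 choices of 3 lists ranked along the horizontal axis, on a symmetric log axis. The choice of the 3 unmarked lines (red diamond) lies in the middle of the range for regions (29 and 16) and for promoters of the marked lines (2), and at 0 for promoters of the unmarked lines.

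Sex and genotype were held level by choosing 1 line from each of the 3 groups with an unmarked line, over the 7 lists of those groups. The unmarked lines then had 99 regions of their own, a count reached by 4 of 12 choices (exact one-sided p = 0.333). They lacked 50 that the other 4 lists shared (6 of 12 choices, exact p = 0.5). For promoters the counts were 1, the gene Agbl3 (10 of 12, exact p = 0.833), and 3, the genes Nes, Rnf135 and Kcnk6 (5 of 12, exact p = 0.417). The smallest p that 12 choices allow is 0.0833, so this comparison could not pass 0.05.

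Nes and Rnf135 were the protein-coding genes outside the locus whose promoters, taken as 1 kb either side of a start, followed it. Only Nes also lay in a joined region that separated the sides (chr3:87970258-87971517), whereas no joined region at Rnf135 did. Nes encodes nestin, an intermediate filament protein of neural progenitors that melanoma cells can also make, and lies at chr3:87971078-87980451. At its promoter the −log10 q was 42.6 in Ma_1014, 21.4 in Ma_1039, 8.59 in Ma_1057, 14.7 in Ma_1064, 26.6 in Ma_1181 and 21.5 in Ma_1456, with no peak in the 3 unmarked lists. The peaks were of low or middle rank, with percentiles from 12.3 in Ma_1057 to 55.1 in Ma_1014. Rnf135, a RING ubiquitin ligase of the antiviral RIG-I pathway, lies at chr11:80183851-80199757. Its −log10 q was 60.5 in Ma_1014, 46.1 in Ma_1039, 15.1 in Ma_1057, 31.1 in Ma_1064, 28.9 in Ma_1181 and 20.5 in Ma_1456. Its percentiles ran from 35.4 to 64.9, so both promoters ranked below p19Arf in every marked list. With peaks of a −log10 q of at least 10, Nes no longer separated the lines, since its peak in Ma_1057 fell away. With lists of equal length Nes was lost as well, and the promoters of the marked lines were those of Rnf135 and Dtnb, a gene outside the naming rule that was chosen after its values were seen. The 250 bases before both starts are shown as the promoters outside the locus that shared the pattern.
Nes, chr3:87970843-87971092, plus strand: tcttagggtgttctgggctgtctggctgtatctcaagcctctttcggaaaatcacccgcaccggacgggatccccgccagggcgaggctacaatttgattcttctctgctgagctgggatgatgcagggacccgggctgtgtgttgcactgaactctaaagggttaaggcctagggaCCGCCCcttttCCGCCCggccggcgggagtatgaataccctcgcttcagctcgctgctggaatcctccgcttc
Rnf135, chr11:80183619-80183868, plus strand: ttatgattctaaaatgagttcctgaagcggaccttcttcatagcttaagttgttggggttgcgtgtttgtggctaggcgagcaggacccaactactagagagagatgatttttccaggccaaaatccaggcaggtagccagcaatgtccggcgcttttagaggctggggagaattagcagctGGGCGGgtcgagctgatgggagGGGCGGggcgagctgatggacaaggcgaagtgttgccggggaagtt

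Each held 2 GC boxes and no other of the searched letters, and their GC contents were 58.8% and 53.6%. The p19Arf window held 2 GC boxes as well, whereas the p16Ink4a and Cdkn2b windows held none.

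The 29 regions of the unmarked lines lay on 13 chromosomes. Their median width was 1304 bp, against 1299 bp over all regions. A protein-coding start lay within 1 kb of 4 of them (13.8%), against 23.1% of all regions. The strongest by its mean percentile over the 3 lists was chr8:120103846-120105868, in an intron of Gm20388 and 2.36 kb from the start of Zdhhc7, a palmitoyl transferase gene (mean percentile 74, range 67.6 to 86.6). The next were chr6:34492639-34495447 in an intron of Bpgm, the gene of bisphosphoglycerate mutase (70.2, range 51.4 to 82.6), and chr10:75373268-75374525 in an intron of Gucd1 (60.1, range 40.6 to 72.3). These were the 3 with a mean percentile above 50.

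Below them came chr6:30346193-30347499, 19.7 kb from the start of Zc3hc1 (mean percentile 49.4), an intron of Acyp2 at chr11:30571850-30573429 (45.5) and chr12:117500116-117502266, 14.2 kb from the start of Rapgef5, a guanine nucleotide exchange factor of Rap GTPases (45.4). The region chr13:94246278-94248394 held a start of Scamp1, a secretory carrier membrane protein (44, range 41.5 to 46.8). The last of the 10 strongest were introns of Prkg1, a cGMP-dependent kinase (41.6), and Ankrd6 (41.2), and chr4:9770099-9771274, 73.1 kb from Gdf6, a growth factor of the BMP family (39.6). The median of the mean percentile was 30.7 over the 29 regions and 37.6 over all regions.

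The 16 regions of the marked lines lay on 9 chromosomes, and their median width was 1978.5 bp. A protein-coding start lay within 1 kb of 3 of them (18.8%). Among them were chr12:32111391-32112445, 50.1 kb from Prkar2b, a regulatory subunit of protein kinase A (mean percentile 54.9), and chr9:61433835-61436588, 23.9 kb from Tle3, a co-repressor of transcription (53.7). The p19Arf region had a mean percentile of 79.2, the Cdkn2b region 68.8 and the region past Cdkn2b 62.6.

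The rest of the 10 strongest were chr4:99384642-99386582, 88.7 kb from Gm12689 (52), an intron of Chst9, a sulfotransferase gene (50.8), chr6:145653387-145655402, 37.6 kb from Tuba3b (47.2), and chr4:115571717-115574231 in an intron of Cyp4a31 (45.7). Then came chr4:53217090-53219676, 57.2 kb from Abca1, the cholesterol exporter (44.1), and introns of Lclat1, an acyltransferase (42.2), and of Glb1, the lysosomal β-galactosidase whose activity is a common stain for senescent cells (39.6). Chromosome 4 itself held 7 of the 19 regions of the marked lines and 2 of the 29 of the unmarked lines, among 3820 regions. These are 0.183% and 0.0524% of its regions, against 0.0326% and 0.0498% over all autosomes. The 7 and the 19 include the 3 at the locus, of which the p19Arf and Cdkn2b regions lie over the genes that chose the lines. The choice of the lines therefore raised the 0.183% and the 0.0326%, and the difference between them is no result about the chromosome. Outside the 3 at the locus, the nearest lay 10.1 Mb away.

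The same 7 sets of letters were counted in these regions, with no test. The AP-1 letters occurred at 0.3 per kb in the 29 regions of the unmarked lines (12 matches) and 0.0914 per kb in the 16 regions of the marked lines (3 matches), against 0.242 per kb over all regions. The MITF letters occurred at 0.15 per kb (6 matches) and 0.183 per kb (6 matches), against 0.0716 per kb. The GC box occurred at 0.125 per kb (5 matches) and 0.335 per kb (11 matches), against 0.465 per kb. GC content was 42.8%, 45.2% and 46%, in that order. The TEAD letters were at 0.476, 0.609 and 0.575 per kb, the E-box at 0.15, 0.122 and 0.15, SOX at 0.626, 0.822 and 0.607, and E2F at 0, 0.0305 and 0.0169. The counts behind the 2 small sets are too few to read an order from.

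No difference between the lists of the 2 sides was detected, and the unmarked lines held both the longest and the shortest. On autosomes Ma_1007 had 40824 peaks, Ma_1062 24513 and Ma_1069 20350, and the marked lines had from 25090 (Ma_1057) to 29644 (Ma_1456). The mean was 28562.3 ± 10821 (SD, n = 3) against 27521.2 ± 1949 (SD, n = 6; exact permutation test, two-sided p = 0.798). Covered length was 44 ± 19.6 Mb against 41.6 ± 5.08 Mb (exact p = 0.81) and median peak width 1084.2 ± 70.7 bp against 1109.3 ± 103 bp (exact p = 0.726). Called promoters numbered 8042 ± 2472.9 against 8142.2 ± 1072.5 (exact p = 0.917). Without Ma_1007 the mean difference, unmarked minus marked, was -5089.7 peaks (exact two-sided p = 0.0357) in place of 1041.2, so the sign of that difference rests on this line.

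**Figure D4:**
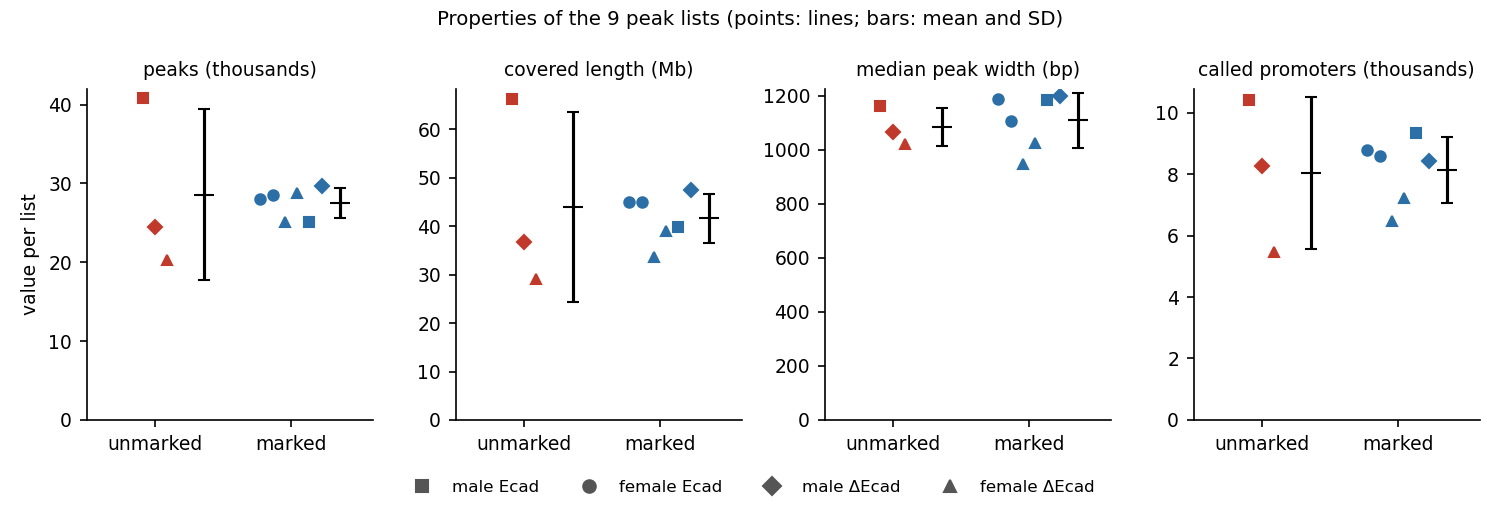
Peak number, covered length, median peak width and number of called protein-coding promoters of the 9 autosomal lists (vertical axes) by side, with 1 point per line, shapes for sex and genotype, and bars for the mean and SD. The unmarked lines span from 20350 to 40824 peaks and the marked lines from 25090 to 29644, inside that range.

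The Jaccard index of a pair of lists, which is the bases covered in both over the bases covered in either, averaged 0.423 within sides and 0.416 between them. The difference of 0.00659 was reached by many other choices (exact permutation test, one-sided p = 0.405). The 3 pairs of unmarked lines had an index from 0.301 to 0.422, below the mean of the 15 marked pairs (0.436, from 0.363 to 0.676). Pairs from different sides ran from 0.266 to 0.545 over 18 pairs, a range that holds all 3 unmarked pairs.

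Each line also lacked regions elsewhere that the other 8 lists shared. Ma_1007 lacked 31 of 8092 such regions, and the 3 in its stretch over Cdkn2a were its longest run in 1 stretch without peaks. Ma_1062 lacked 255, with its longest run, 8 regions in 136 kb, over Irf2bpl at chr12:86767499-86903561. Ma_1069 lacked 1423, with 10 stretches of 4 regions each. The stretches of Ma_1062 and Ma_1069 held 0 regions of this kind, and the regions at the genes are not counted here because the other unmarked lists lack them too.

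In the marked lines the longest runs were 5 regions in Ma_1057, 4 in Ma_1181 and Ma_1456, 3 in Ma_1014 and 2 in Ma_1039 and Ma_1064. That of Ma_1057 lay on the same chromosome, in 64.9 kb over the interferon zeta cluster at chr4:88723138-88788033, between Klhl9 and Mtap. That of Ma_1181 lay over Metap2, Vezt and Fgd6 (chr10:93890260-94147501), and those of Ma_1456 over Fnbp1 and Gpr107 (chr2:31069557-31206359) and in a stretch with no protein-coding gene (chr13:37471202-37698108). Ma_1014 had runs over Scg2 (chr1:78908912-79522452) and around Gfra1 (chr19:57379870-59036050). The 2 runs of Ma_1039 lay around Kiss1 and Sox13 (chr1:133137396-133609700) and around Ephx1 (chr1:180983622-181144212), and Ma_1064 had 15 runs of 2.

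Of the 9 lists of genes that act with the locus or beside it, no member separated the sides. As a baseline, of 20807 autosomal protein-coding promoters 4553 were called in all 9 lists and 9512 in none. Of the same 20807, 8042 ± 2472.9 were called in unmarked lines and 8142.2 ± 1072.5 in marked lines. Over all 11295 called promoters, 270 (2.39%) had a share of lists with a call at least 50 percentage points higher in unmarked lines and 274 (2.43%) in marked lines. Against these, 0 of the 14 G1 cyclins, kinases and other inhibitors differed by that much in either direction. Ccnd1 and Cdk4, the cyclin and the kinase that p16INK4a inhibits, were called in all 9 lists, as were Cdkn1a, Cdkn1b and Cdkn2c. Cdkn2d, the p19INK4d gene, was called in 2 of 3 unmarked and all 6 marked lists. The list had 11 ± 1.73 called promoters in unmarked lines (SD, n = 3) and 11.5 ± 1.76 in marked lines (SD, n = 6).

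Of the 13 genes of the RB and E2F families, none differed by 50 points either, with 9 ± 3.61 called promoters in unmarked and 8.83 ± 2.32 in marked lines. Rb1 and E2f3 were called in all 9 lists and E2f1 in 2 of 3 and 6 of 6. The 19 measured E2F target genes, which drive DNA replication, gave 12 ± 7.21 and 13.8 ± 5.12, with a spread from 4 to 18 among the unmarked lines alone. Of the Mcm genes of the replicative helicase, Mcm7 was called in all 9 lists, Mcm4 in 2 of 3 unmarked and 6 of 6 marked lists and Mcm5 in 2 of 3 and 4 of 6. Mcm2 was called in 1 of 3 and 4 of 6, Mcm3 in 1 of 3 and 3 of 6, and Mcm6 in 1 of 3 and 2 of 6.

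On the p53 side, Trp53, Mdm2 and Mdm4 were called in all 9 lists, and none of the 11 measured genes of p53 and its regulators differed by 50 points (7.67 ± 1.53 called promoters in unmarked and 7.5 ± 0.837 in marked lines). Among 23 measured p53 target genes, 18.7 ± 1.53 were called in unmarked and 16.8 ± 0.983 in marked lines, with ranges of 17 to 20 and 16 to 18. Gdf15, a stress-induced cytokine, was the 1 member past 50 points, with a call in 3 of 3 unmarked and 3 of 6 marked lists. Targets in cell cycle arrest and cell death such as Cdkn1a, Bbc3 and Bax were called in all 9.

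Of the 26 Polycomb genes and other known regulators of the locus, 2 were called more often in marked lines by 50 points. They were Cbx7, a chromobox protein of Polycomb complex 1 that represses the locus (0 of 3 against 3 of 6), and Ets2, a transcription factor that activates p16INK4a (1 of 3 against 5 of 6). Bmi1 and Ezh2, the Polycomb proteins best known for repressing the locus, were called in all 9 lists. The list had 19 ± 5.29 called promoters in unmarked and 21 ± 2.28 in marked lines. Among the 13 measured genes of methionine salvage and arginine methylation, Mtap included, none differed by 50 points (11.3 ± 2.08 against 11 ± 1.67). Prmt5, the methyltransferase inhibited when Mtap is lost, was called in 2 of 3 and 4 of 6.

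Senescence-associated secreted factors were rarely called on either side, 4 ± 1.73 of 21 in unmarked and 3.33 ± 1.21 in marked lines. Of the 21, 14 were called in no list, against 9512 of all 20807 promoters. Vegfa was called in all 9 lists, and Il1a, Il1b, Cxcl1 and Ccl2 in none. Of 29 measured tumour suppressors other than Cdkn2a, 25 ± 4.36 and 25.5 ± 2.17 were called. Rb1, Trp53 and Nf1 were called in all 9, and Cdh1, whose gene is deleted in the ΔEcad lines, in none. Fat1, a giant cadherin, was the 1 member past 50 points, called in 3 of 3 unmarked and 2 of 6 marked lists. Over the 9 lists, 4 members were thus past 50 points, 2 in each direction.

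**Figure D5:**
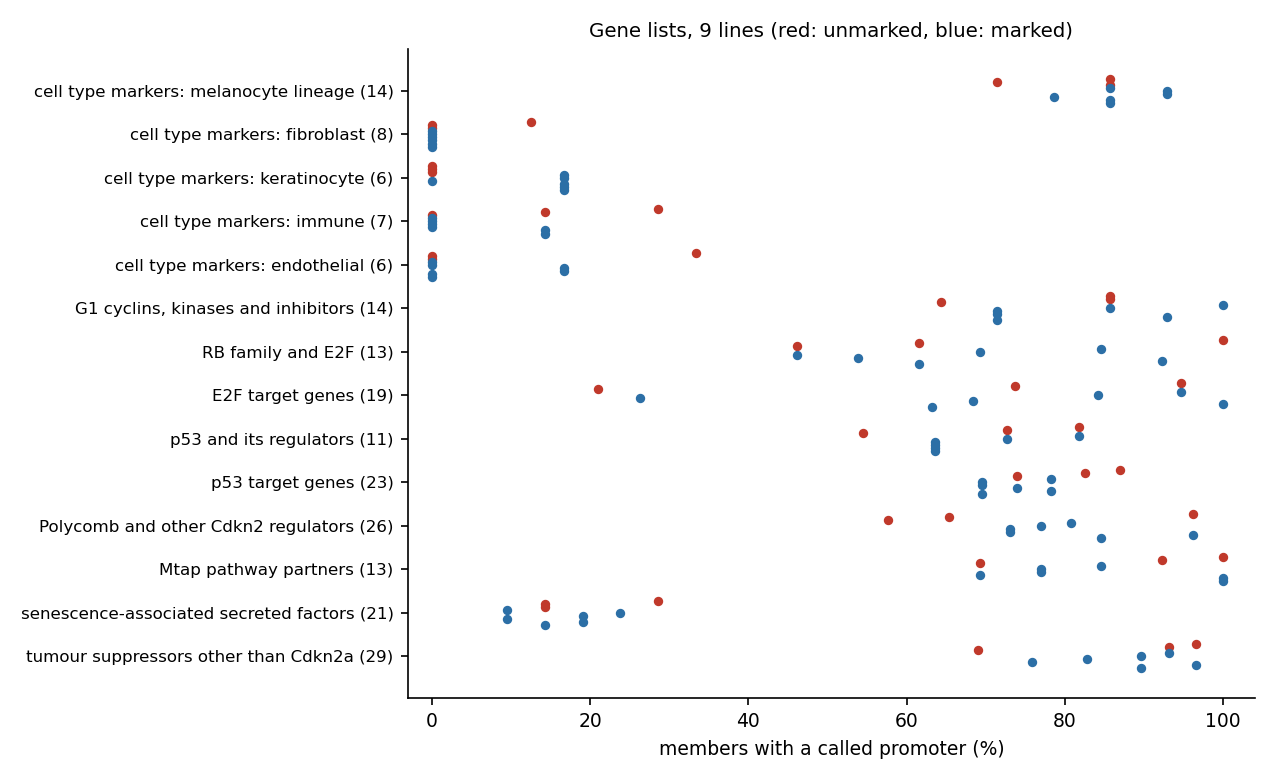
Share of the members of 14 gene lists with a called promoter (horizontal axis, %), 1 point per line, with unmarked lines in red, marked lines in blue and the number of measured members in brackets. The points of the 2 sides overlap in every list, and the spread within a side is widest for the E2F target genes, with 4 to 18 of 19 called among the unmarked lines.

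The cell type in the labels, melanoma, fitted the markers on both sides. Of 14 measured genes of the melanocyte lineage, 11.3 ± 1.15 were called in unmarked and 12.2 ± 0.753 in marked lines. Mitf, Sox10, Tyr, Dct, Pmel and Mlana were called in all 9 lists. Kit was called in 2 of 3 unmarked and 3 of 6 marked lists, and Ednrb in 1 of 3 and 2 of 6. The pigmentation genes Tyrp1 (1 of 3 against 5 of 6) and Oca2 (0 of 3 against 3 of 6) were called more often in marked lines by 50 points. Few markers of other cells were called. Of 8 fibroblast markers, the unmarked lines had 0 to 1 called and the marked lines 0, with Col1a1, Col3a1 and Dcn at 0 in all lists. Of 7 immune markers 0 to 2 and 0 to 1 were called, with Ptprc at 0 in all, and of 6 endothelial markers 0 to 2 and 0 to 1, with Pecam1 and Cdh5 at 0. The immune marker Cd68 was called in 2 of 3 unmarked and 2 of 6 marked lists, and the endothelial marker Egfl7 in 1 of 3 and 2 of 6. Pdgfra (fibroblast), Spi1 (immune) and Tek (endothelial) were called in Ma_1007 alone. Of 6 keratinocyte markers the unmarked lines had 0 and 5 of the 6 marked lines had 1, which was Krt10 in each and so past 50 points, with Krt5 and Krt14 at 0.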

How the data were processed

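H3K27ac ChIP-seq peak lists of 9 cell lines were used, and 4 input libraries were not analysed here. The authors aligned reads with bowtie2 to GRCm38 (mm10), and the submitters' processing notes name Bowtie2 2.4.5, MACS2 2.2.7.1 and deepTools 3.5.1.0.0. Which input served which list is not stated. In each deposited list the score is a rounded-down form of the −log10 q, the fold enrichment is a linear ratio over local background, and the −log10 p and −log10 q are those of the caller. Per the file contents the lowest deposited −log10 q was above 5. Lists hold no read counts, so the depth is unknown, no counting interval can be given, and a deeper library can give a longer list.

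The lines were grouped by side, and the members, gene lists and tests were chosen with earlier results of these data known. Peaks of the 9 autosomal lists that overlapped or touched were joined into regions, which counted as called by a list at an overlap of 1 bp. Promoters were called by peaks up to 1 kb from any transcript start of the gene in GENCODE M21. Counts over 1 Mb from Cdkn2a and Cdkn2b were placed among all 84 choices of 3 of 9 lists (exact permutation, one-sided, smallest p 0.0119), and list properties were compared by exact two-sided permutation of means. The smallest p over the 12 choices within groups is 0.0833. Alternatives were peaks with a −log10 q of at least 10, lists of equal length, X and Y, 5 Mb, 50% coverage, a 500 bp window, all annotated genes, and each line left out. Named genes were Cdkn2a, Cdkn2b, genes with called promoters within 1 Mb, promoters that separate the sides, the 10 strongest regions per direction by mean percentile, list members that separate the sides or differ by 50 points, and the longest runs of missing shared regions. Genes of the locus named beside these were chosen after their values were seen. Scripts used Python 3.11.15, numpy 2.4.6 and pandas 2.3.3, and the counting was tested on lists with planted regions. A region among the strongest of the marked lines and a member of the tumour suppressor list are not reported here by name.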

Additional observations from a re-analysis of the deposited data

Results flagged for a closer look

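The unmarked line had more peaks than the marked line in male Ecad and fewer in the other groups that hold both. In male Ecad, Ma_1007 had 15709 more peaks than Ma_1181, 26.3 Mb more covered length and 1050 more called promoters. In male ΔEcad the difference between Ma_1062 and Ma_1456 was -5131 peaks, -10.7 Mb and -165 promoters. In female ΔEcad, Ma_1069 differed from Ma_1064 by -8449 peaks, -9.9 Mb and -1748 promoters, and from Ma_1057 by -4740 peaks, -4.5 Mb and -1022 promoters. These differences were flagged because every line of one group moved one way and every line of the others the opposite way, and the difference between groups was not tested.

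Among 23 measures examined over the 6 marked lines, 1 was flagged as far from the others. Ma_1057 had 0 called promoters of keratinocyte markers, where the other 5 marked lines had 1 each. That difference is 1 promoter call (Krt10), and because the other 5 values are tied, any other count would have been flagged. Chance flags about 1 in 20 groups of untied values, a rate that does not hold for tied small counts.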

How the results depend on the processing

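Of 107 alternatives with a test, 1 passed 0.05. Without Ma_1007 the unmarked lists had a peak number difference of -5089.7 (exact p = 0.0357) in place of 1041.2, and the covered length difference was -8.76 Mb (exact p = 0.143) in place of 2.36 Mb. Leaving out each line in turn, regions of the unmarked lines numbered 34 to 353 and those of the marked lines 18 to 196, and promoters 0 to 33 and 2 to 37. The largest counts came without Ma_1069 (353 regions and 33 promoters of the unmarked lines) and without Ma_1007 (196 regions and 37 promoters of the marked lines). Over the same settings the peak number difference ran from -5089.7 to 5147.3, covered length from -8.76 to 9.82 Mb, median peak width from -63.8 to 5.42 bp and the Jaccard difference from -0.0106 to 0.0342.

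With peaks of a −log10 q of at least 10, the promoters of the unmarked lines numbered 1 (Atp13a4, which lies outside the named genes and was chosen after its values were seen) and those of the marked lines 1 (Rnf135). With lists of equal length, regions of the marked lines numbered 37 (exact p = 0.214) and promoters of the unmarked lines 1 (Atp13a4), while those of the marked lines were Rnf135 and Dtnb in place of Nes. With 1 line from each group the counts were 99 and 50 regions and 1 promoter (Agbl3) of the unmarked lines. With 50% coverage the regions of the marked lines numbered 9. With all annotated genes, 2 and 4 promoters separated the sides, of which 4930412C18Rik and Gm25625 were of the unmarked lines and Nes, Rnf135, 4930412L05Rik and Gm37556 of the marked lines. Counting regions shared by at least 6 of the other 8 lists, the stretches over the locus held 14 missing regions in place of 3. They were 7 in Ma_1007, 3 in Ma_1062 and 4 in Ma_1069. However, 6 of the 14 are the p19Arf and Cdkn2b regions in each of the 3 lines, whose absence chose the lines. Stretches elsewhere with more missing regions than the one over the locus numbered 0 in Ma_1007, 11 in Ma_1062 and 89 in Ma_1069. The mean stretch was 301 kb with peaks of a −log10 q of at least 10 and 288 kb with all peaks. No paired analysis was possible because replicate numbers were given in the order of deposition and pair no lines. The depth of the lists is unknown, which limits every comparison of calls.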
